A study of Mus musculus with 6 samples.

Results

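Imprinted genes are transcribed mainly from the copy inherited from 1 parent. Of 41 imprinted mouse genes listed for this account, 35 had a row of their own among the 36699 gene rows of the data, chosen by an exact match of the gene name, and 33 of these had been tested by the authors. H19, Meg3, Rian, Mirg and Commd1 appeared only in 5 rows that name several genes; those rows are described beside the others and are kept out of the counts unless stated. The expression of Kcnq1ot1 was not analysed here, and only its promoter window is counted below. The RNA came from A2Lox.cre embryonic stem (ES) cells, a mouse line with a doxycycline-responsive site for inserted genes, which were grown on mouse fibroblast feeders, stripped of them and cultured in suspension as embryoid bodies until day 3. All 6 libraries carry the inducible Flag-Sp5 construct: 3 had no doxycycline (replicates 2, 3 and 4), and 3 had doxycycline from day 2, for 24 hours, to express Flag-tagged Sp5 (replicates 1, 3 and 4). Sp5 is a zinc-finger transcription factor that binds GC-rich DNA. The labels name 1 line, give no doxycycline-treated cells without the construct, so that effects of the drug and of Flag-Sp5 cannot be told apart, and do not say whether libraries came from separate cultures.

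Expression is in FPKM, a count of fragments corrected for transcript length and library size, with 1 value for each group as the authors combined it, so no spread over libraries can be shown. A gene is said to rise or fall where q in the authors' deposited table was under 0.05, with doxycycline against without. Ratios are the value with doxycycline over the value without. The 95% intervals come from the authors' test statistic, whose two-sided normal tail gave the deposited p-values, and hold only the spread that the authors' test saw. The targeted gene Sp5 stood at 0.769 FPKM without and 126 FPKM with doxycycline. Pou5f1, which marks pluripotent cells, stood at 999 and 1058 FPKM and was not called, while T (Brachyury), a factor of early mesoderm, went from 0.745 to 103 FPKM.

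As background, the parental copy of an imprinted gene is marked by DNA methylation set in the egg or sperm, and the marks sit at control regions that govern clusters of neighbouring genes. Many of the proteins act on growth: paternally expressed genes such as Igf2 tend to promote it, and maternally expressed genes such as Cdkn1c, Phlda2, Grb10 and Igf2r tend to restrain it. Several clusters also make long noncoding RNAs, such as H19 and Meg3, from which microRNAs are processed. These libraries do not separate the parental copies, so what follows concerns the total RNA of each gene.

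The windows before the start sites of 4 genes are shown first because their rows were among those with the larger changes at 1 FPKM or more. Each is the 250 bases before a RefSeq start in build GRCm38.p6, with every GGGCGG, the GC box bound by Sp proteins, in capitals on either strand.
Phlda2, chr7:143502525-143502774, minus strand: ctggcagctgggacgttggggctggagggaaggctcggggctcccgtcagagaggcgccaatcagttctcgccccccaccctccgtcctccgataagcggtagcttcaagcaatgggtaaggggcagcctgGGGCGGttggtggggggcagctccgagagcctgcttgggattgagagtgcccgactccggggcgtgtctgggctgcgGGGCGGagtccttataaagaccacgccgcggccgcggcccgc
Magel2, chr7:62376729-62376978, plus strand: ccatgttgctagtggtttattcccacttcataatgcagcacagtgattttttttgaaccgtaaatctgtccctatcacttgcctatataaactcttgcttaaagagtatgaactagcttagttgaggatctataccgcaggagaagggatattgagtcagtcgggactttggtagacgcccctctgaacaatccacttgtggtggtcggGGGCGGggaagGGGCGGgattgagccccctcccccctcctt
Grb10, chr11:12037421-12037670, minus strand: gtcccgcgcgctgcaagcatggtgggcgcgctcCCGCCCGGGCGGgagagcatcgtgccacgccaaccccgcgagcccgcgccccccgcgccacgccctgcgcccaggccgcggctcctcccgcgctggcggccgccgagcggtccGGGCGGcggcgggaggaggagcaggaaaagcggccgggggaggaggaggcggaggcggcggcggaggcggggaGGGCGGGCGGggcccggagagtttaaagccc
Meg3, chr12:109540746-109540995, plus strand: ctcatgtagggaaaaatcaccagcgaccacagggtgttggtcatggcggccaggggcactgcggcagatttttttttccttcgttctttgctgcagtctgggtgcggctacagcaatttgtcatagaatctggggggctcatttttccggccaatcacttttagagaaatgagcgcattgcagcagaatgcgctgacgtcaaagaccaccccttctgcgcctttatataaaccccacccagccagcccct
Phlda2, which rose, had 2 such boxes, and so had Magel2, which fell. Grb10 had 5 in this window, overlapping copies included, and none in the window of its other listed start. Meg3 had none in either of its windows. GGGCGG was present in at least 1 window of 19 of the 35 listed genes matched by symbol (54.3%) and of 35.4% of all 27025 genes in the same RefSeq table. By call, with rows naming several genes included, it was present in 3 of 5 matched genes that rose and in 5 of 8 that fell. Among tested genes that were not called it was present in 10 of 19. These 19 include Commd1 and lack Impact, which was not matched, so they differ from the 19 uncalled genes counted below. TGCCGC, a motif read by the imprint-keeping protein Zfp57 when methylated, was present in 6 of the 35 (17.1%) and in 9.84% of all genes, searched on both strands. It was in 1 of 5 that rose, 1 of 8 that fell and 4 of 19 not called. TATAAA, the TATA box, was present in 9 of the 35 (25.7%) and in 14.3% of all genes. By call, it was in 1 of the 5 that rose (Phlda2), 5 of the 8 that fell (Dio3, Gnas, Magel2, Meg3 and Snrpn) and 3 of the 19 not called. These are small numbers, compared after the calls were known and without a test, and genes with several start sites, such as Gnas, have more windows in which to match. These are matches of letters in windows of fixed length and show no binding.

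The rows of H19, Meg3 and Mirg, each of which fell, name 8 microRNA genes with 14 mature sequences in RefSeq. Of these, 8 from 7 of the genes are printed as examples; those of Mir412 and the second arms of Mir770, Mir377, Mir369 and Mir410 are not. The seed, bases 2 to 8, is in capitals, and sequences are RefSeq's (GRCm38.p6).
mmu-miR-675-5p: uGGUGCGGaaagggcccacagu
mmu-miR-675-3p: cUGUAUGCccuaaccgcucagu
mmu-miR-770-5p: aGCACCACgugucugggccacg
mmu-miR-1906: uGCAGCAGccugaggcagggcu
mmu-miR-485-3p: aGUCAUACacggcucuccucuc
mmu-miR-377-3p: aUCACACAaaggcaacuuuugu
mmu-miR-369-3p: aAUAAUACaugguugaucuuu
mmu-miR-410-3p: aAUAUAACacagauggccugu
The pair from Mir675 lies within H19, mmu-miR-770-5p and mmu-miR-1906 belong to the Meg3 row, and the last 4 to the Mirg row. No 2 of all 14 mature sequences, printed or not, shared a seed. The values below are those of the long host rows, from poly(A)-selected RNA, and not of the mature microRNAs.

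In the authors' deposited table, 33 imprinted genes were tested: 7 rose, 7 fell and 19 passed in neither direction, so that 42.4% were called against 23.2% of all 18537 tested rows. Background shares were 10.5% for rises and 12.7% for falls. At 1 FPKM or more in either group, 10 of 24 were called, beside 28.3% of all such rows, and below that level 4 of 9 were called, beside 13.2% of all such rows. The median log2 fold change was 0.04, beside -0.03 over all tested rows, so the calls went both ways about a centre near 0. Counting the rows that name several genes as well, 7 rose and 10 fell of 37 tested (45.9% called). By size, of the 33 tested genes, 10 were called with a change of at least 1.5-fold (30.3%, beside 11.2% of all tested rows) and 5 with at least 2-fold (15.2%, beside 5.75%). These background shares leave uncounted 2 called rows with a group listed at 0. Without doxycycline the 35 rows ranged from 0.0809 to 188 FPKM with a median of 9.36, and with it from 0.144 to 127 FPKM with a median of 11.7.

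**Figure D1:**
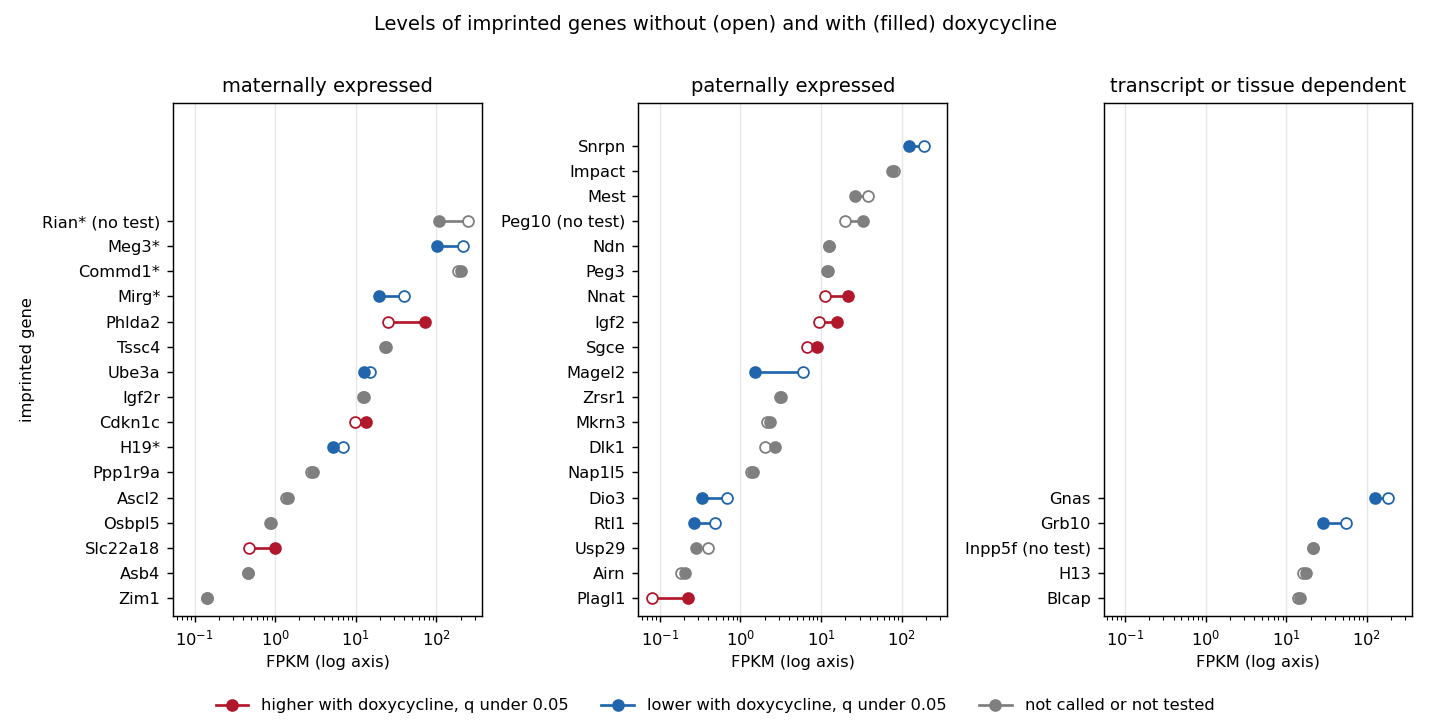
FPKM of each imprinted gene (log axis) without doxycycline (open circle) and with it (filled circle), in 3 panels by the parental copy usually expressed; 1 value a group, no error available. An asterisk marks a row that names several genes, and the longest lines are those of Magel2, Phlda2 and Plagl1.

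Maternally expressed genes were tested in 11 rows, of which 3 rose, 1 fell and 7 did not pass in the authors' deposited table. That is 36.4% called, beside 23.2% of all tested rows. With the rows naming several genes, 3 rose, 4 fell and 8 were not called of 15. The 3 that rose were neighbours in the Kcnq1 cluster of chromosome 7. Phlda2, a pleckstrin-domain protein that limits placental growth, stood at 24.8 FPKM in untreated and 71.2 FPKM in treated cells. It had the largest rise in FPKM of all 35 rows, with a ratio of 2.87 (95% interval 2.56 to 3.21; q = 0 as printed in the authors' deposited table; chromosome 7, 150687450 to 150688446 of mm9). Cdkn1c, which encodes the cyclin-dependent kinase inhibitor p57, went from 9.89 to 13.3 FPKM, a ratio of 1.35 (1.19 to 1.53; q = 3.26e-05 in the authors' deposited table). Slc22a18, a membrane transporter gene between these, was low, at 0.467 and 0.998 FPKM, and its ratio of 2.13 had a wide interval (1.31 to 3.47; q = 0.0127 in the authors' deposited table).

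The other 3 tested genes listed from the cluster were not called. Ascl2, a factor of trophoblast, stood at 1.36 and 1.43 FPKM and Tssc4 at 23.8 and 22.7 FPKM. Osbpl5, a lipid-transfer protein gene at the far end, stood at 0.87 and 0.894 FPKM with an interval of the ratio from 0.322 to 3.29, which is too wide to limit its change. Between Phlda2 and Osbpl5, the rows of Nap1l4 (82.2 and 85.1 FPKM), Cars (44.7 and 42.6 FPKM) and Tnfrsf22 (17.4 and 15.3 FPKM), named here for their position, were not called either.

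Ube3a, a ubiquitin ligase gene that is imprinted in neurons, fell slightly, from 15 to 12.7 FPKM (ratio 0.847, 0.772 to 0.929; q = 0.00298 in the authors' deposited table). Igf2r, the receptor that carries IGF2 to the lysosome, stood at 12.3 and 12.6 FPKM, and its interval of 0.938 to 1.13 leaves room for only a small difference. Its row shares a span with Airn and others, and the protocol names no step that marks strand, so reads of overlapping genes may not be separable. Ppp1r9a (2.81 and 2.96 FPKM), Asb4 (0.454 FPKM in both groups) and Zim1 (0.141 and 0.144 FPKM) were not called.

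The long noncoding RNAs of the maternal copy had lower values with doxycycline in each of the 4 rows listed for them. The row of Meg3, with Mir770 and Mir1906-1, fell from 216 to 103 FPKM (ratio 0.478, 0.41 to 0.557) and that of Mirg, with 5 microRNA genes, from 39.4 to 19.3 FPKM (ratio 0.49, 0.44 to 0.544), at 110779211 to 110809936 and 110973109 to 110987665 of chromosome 12; q was listed as 0 for both in the authors' deposited table. The Rian row was listed at 246 and 109 FPKM, but its status was FAIL and it had no test. H19, with Mir675, fell from 6.97 to 5.28 FPKM (ratio 0.758, 0.644 to 0.892; q = 0.00554 in the authors' deposited table). The row B3gnt2,Commd1 stood at 186 and 201 FPKM and was not called; it cannot be assigned to Commd1 alone.

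Paternally expressed genes were tested in 18 rows, of which 4 rose, 4 fell and 10 did not pass in the authors' deposited table. That is 44.4% called, beside 23.2% of all tested rows. Igf2, the embryonic growth factor gene, was at 9.36 FPKM without doxycycline and 15.9 FPKM with it. Its ratio was 1.70 (1.51 to 1.91; q = 0 as printed in the authors' deposited table; chromosome 7, 149836673 to 149856261), so Igf2 rose while the H19 row next to it fell. Igf2as shares this span, at 1.06 and 1.22 FPKM, and was not called. Nnat, a small membrane protein of neurons and fat cells, was at 11.2 and 21.5 FPKM, a ratio of 1.93 (1.60 to 2.33; q = 1.45e-10 in the authors' deposited table). Nnat lies within Blcap, which stood at 13.9 and 14.8 FPKM and was not called. Plagl1, a zinc-finger factor that holds back cell division, rose from 0.0809 to 0.225 FPKM (ratio 2.78, 1.58 to 4.89; q = 0.00259 in the authors' deposited table) and stayed low in both groups. Sgce, the epsilon-sarcoglycan gene, rose from 6.71 to 8.97 FPKM (ratio 1.34, 1.11 to 1.61; q = 0.0127 in the authors' deposited table). Its neighbour Peg10, a gene derived from a retrotransposon, was listed at 19.7 and 33.1 FPKM with status FAIL and has no test.

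Among paternally expressed genes that fell, Magel2 had the largest fold of all 14 called genes. Magel2, a MAGE-family regulator of ubiquitin ligases linked to Prader-Willi and related syndromes, was at 5.98 FPKM without doxycycline and 1.5 FPKM with it. The ratio was 0.25 (0.221 to 0.282; q = 0 as printed in the authors' deposited table; chromosome 7, 69521865 to 69526526). Snrpn, a spliceosome component, fell from 188 to 122 FPKM (ratio 0.65, 0.595 to 0.709; q = 0 as printed in the authors' deposited table). It had the highest level of the 35 rows without doxycycline. Rtl1, a retrotransposon-derived gene of the placenta, was low and fell from 0.479 to 0.268 FPKM (ratio 0.559, 0.455 to 0.687; q = 5.01e-07 in the authors' deposited table). A maternal antisense transcript is known at Rtl1, and without strand its reads cannot be told apart from those of Rtl1. Dio3, which inactivates thyroid hormone, went from 0.687 to 0.338 FPKM (ratio 0.492, 0.349 to 0.694; q = 0.000455 in the authors' deposited table).

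The remaining 10 tested paternally expressed genes were not called. Peg3, a large zinc-finger gene, stood at 12.2 and 11.7 FPKM, Ndn (necdin) at 12.4 FPKM in both groups and Impact, a regulator of the translation kinase Gcn2, at 79.7 and 75.3 FPKM. Mkrn3 (2.16 and 2.31 FPKM), Zrsr1 (3.21 and 3.07 FPKM) and Nap1l5 (1.37 and 1.45 FPKM) were not called. Dlk1, a Notch-related surface protein gene, stood at 2.01 and 2.66 FPKM with an interval of the ratio from 0.979 to 1.80. Mest, a hydrolase gene, stood at 37.9 and 26.3 FPKM with an interval from 0.414 to 1.17, and was not called although it differed by more FPKM than most called genes. Usp29 (0.398 and 0.28 FPKM; q = 0.0747 in the authors' deposited table) and Airn, the noncoding RNA that silences Igf2r (0.183 and 0.204 FPKM, interval 0.127 to 9.85), were under 1 FPKM. Over both parental classes and the last one, 14 genes at 1 FPKM or more were not called, and the interval lay within 1.5-fold either way for 12 of them, all but Dlk1 and Mest.

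**Figure D2:**
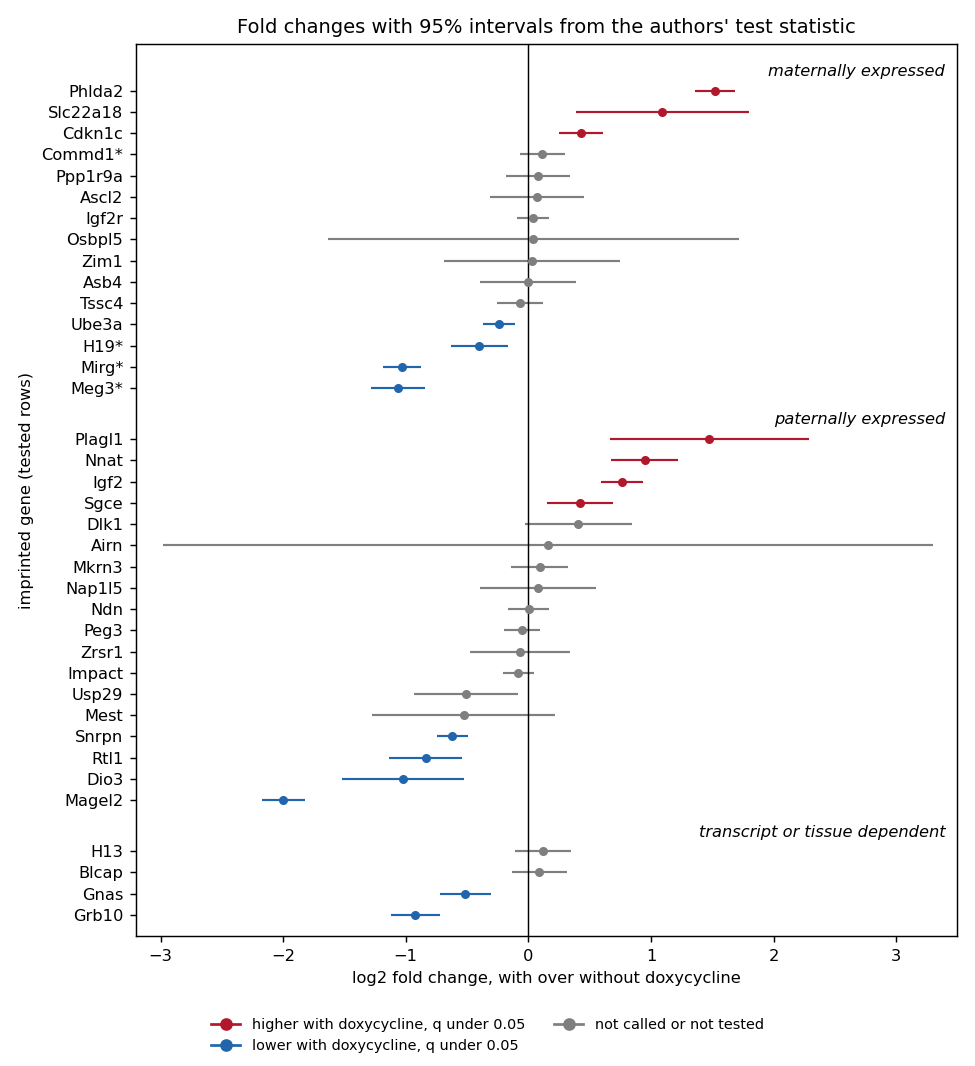
Log2 fold change of each tested row, with over without doxycycline, with 95% intervals from the authors' test statistic, grouped by the parental copy usually expressed; an asterisk marks a row naming several genes. Magel2, Meg3, Mirg, Dio3 and Grb10 lie at the low end, Phlda2, Plagl1 and Slc22a18 at the high end, and Airn and Osbpl5 have the widest intervals.

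For 5 genes the parental copy used depends on the promoter or tissue. Of 4 tested, 2 fell and none rose in the authors' deposited table. That is 50% called, beside 23.2% of all tested rows, but 4 rows are too few to compare shares. Grb10, an adaptor protein that damps insulin and IGF receptor signalling, was at 54.3 FPKM without doxycycline and 28.7 FPKM with it, a ratio of 0.528 (0.46 to 0.606; q = 0 as printed in the authors' deposited table; chromosome 11, 11830511 to 11938686). Gnas, which encodes the stimulatory G protein subunit and whose locus has several imprinted promoters, went from 181 to 127 FPKM (ratio 0.701, 0.606 to 0.811; q = 2.03e-05 in the authors' deposited table). The row AF085738 has the same span as Gnas and fell from 111 to 75.4 FPKM (chosen with its values known), while Nespas, the antisense RNA there, stood at 4.31 and 3.86 FPKM and was not called. H13 (16.3 and 17.7 FPKM) and Blcap were not called, and Inpp5f (21.3 and 21.2 FPKM) had status FAIL.

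By cluster, few rows were tested in each, and over all tested rows 12.7% fell and 23.2% were called in either direction. The Dlk1-Dio3 region of chromosome 12 had 5 tested rows of listed genes, rows naming several genes included. Of these, 4 fell, with ratios between 0.478 and 0.559, and the untested Rian row had a ratio of 0.443. Dlk1, at the other end of the region from Dio3, was the exception and was not called. The falls included Rtl1 and Dio3, listed as expressed from the paternal copy, as well as Meg3 and Mirg from the maternal copy. Rtl1 and Dio3 were under 1 FPKM in both groups, and reads of Rtl1 cannot be told apart from its maternal antisense transcript. Dlk1, which is also paternally expressed, had the higher level of 2.01 and 2.66 FPKM. Gm17639, a predicted gene with the span of the Meg3 row, fell from 22.7 to 11 FPKM and may share its reads. In the Snrpn region of chromosome 7, Ube3a, Snrpn and Magel2 fell, whereas Ndn and Mkrn3, on either side of Magel2, were not called. Their intervals of the ratio, 0.893 to 1.12 for Ndn and 0.908 to 1.25 for Mkrn3, do not overlap the 0.221 to 0.282 of Magel2. Peg12, the next imprinted gene after Mkrn3, rose from 0.214 to 0.468 FPKM (q = 4.88e-06 in the authors' deposited table; chosen with its values known). In the Peg3 region none of the 3 tested genes and in the Igf2r region neither of the 2 was called. At an unadjusted p under 0.05, Usp29 alone passed among these 5 (p = 0.0189 in the authors' deposited table).

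**Figure D3:**
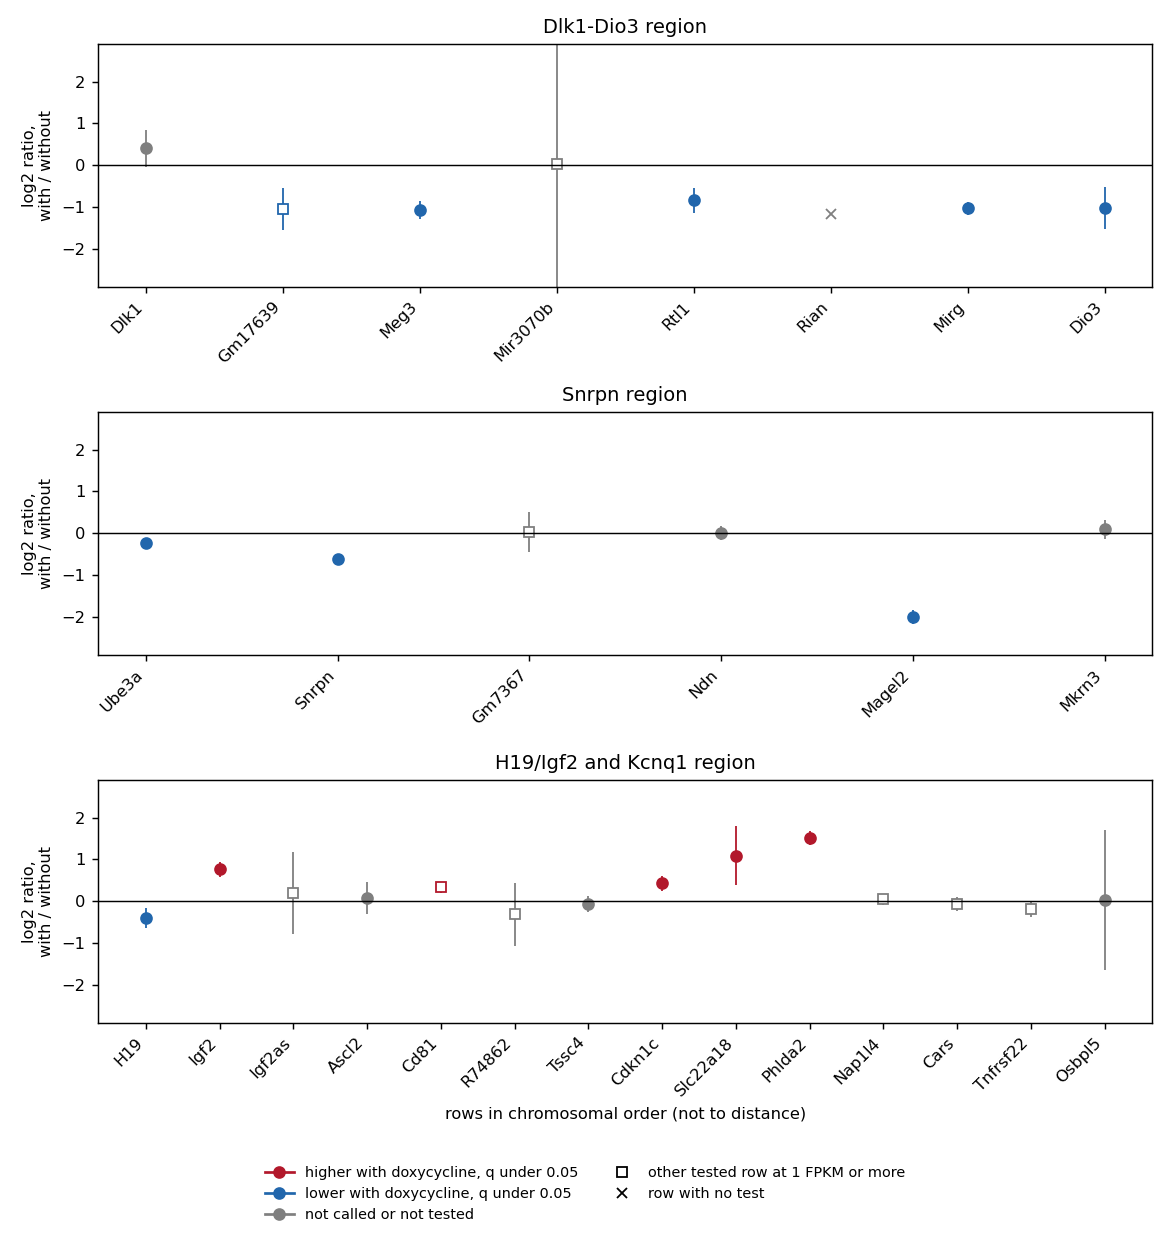
Log2 ratio of each row, with over without doxycycline, in chromosomal order for 3 imprinted regions, with 95% intervals from the authors' test statistic; the interval of Mir3070b runs past the axis. Rows from Meg3 to Dio3 lie near -1 apart from Mir3070b, Magel2 lies near -2 between Ndn and Mkrn3 near 0, and Cdkn1c, Slc22a18 and Phlda2 lie above 0 beside Nap1l4 near 0.

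A further list of imprinted genes outside the 41 had 33 tested rows. The authors' deposited table gave 6 rises and 4 falls among them (30.3% called, beside 23.2% of all tested rows). At 1 FPKM or more in either group, 7 of 24 were called, beside 28.3% of all such rows. Their median log2 fold change over all tested rows of the list was 0.00, and the difference from the listed genes was not tested. Calcr, the calcitonin receptor gene, fell from 3.28 to 1.05 FPKM (3.13-fold) and Dcn, the matrix proteoglycan decorin, from 2.08 to 1.39 FPKM. Qpct, a glutaminyl cyclase gene, rose from 1.23 to 2.07 FPKM, the Polycomb-related gene Sfmbt2 from 2.04 to 2.94 FPKM, Begain from 0.736 to 1.02 FPKM and the tetraspanin gene Cd81 from 105 to 133 FPKM.

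Rows within 250 kb of an imprinted gene, neither listed nor among those other imprinted genes, were called in 20 of 114 tests (17.5%; 10 rose and 10 fell in the authors' deposited table), beside 23.2% of all tested rows. Of the 67 tested rows at 1 FPKM or more in either group, 17 were called, beside 28.3% of all such rows. Among those with the largest folds at 1 FPKM or more were Lsp1 near H19 (0.628 to 4.43 FPKM), Dusp15 (0.46 to 2.92 FPKM) and the BMP target Id1 (36.2 to 104 FPKM) near H13, B230208H11Rik near Plagl1 (0.824 to 1.76 FPKM) and Gm17639 at Meg3.

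Factors that set, keep or remove imprints were tested in 26 rows, of which 3 rose, 6 fell and 17 did not pass in the authors' deposited table. That is 34.6% called, beside 23.2% of all tested rows. At 1 FPKM or more in either group, 8 of 24 were called, beside 28.3% of all such rows. Dppa3, which protects methylation in the early embryo, rose from 11.4 to 18.4 FPKM (1.62-fold) and Zfp57, which binds methylated imprint control regions, from 26.4 to 33 FPKM (1.25-fold). The methyltransferase gene Dnmt3a fell from 130 to 92.8 FPKM, Hells, a remodeller needed for methylation, from 107 to 80.7 FPKM, and the demethylase genes Tet1 from 9.44 to 6.63 FPKM and Tet3 from 1.77 to 1.24 FPKM. Trim28 (447 and 404 FPKM), the partner of Zfp57, Dnmt1 (39.1 and 36.5 FPKM), which copies methylation, Uhrf1 (93.1 and 93.4 FPKM) and Ctcf (50.9 and 46.1 FPKM), which insulates Igf2 from its enhancers, were chosen with their values in view and did not pass the test. Dnmt3b had status HIDATA, which Cuffdiff gives to loci with too many fragments, and was listed at 0 without doxycycline, which is no level.

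Around Igf2 and Grb10, genes of insulin and IGF signalling were tested in 25 rows. Of these, 3 rose, 6 fell and 16 did not pass in the authors' deposited table (36% called, beside 23.2% of all tested rows). At 1 FPKM or more in either group, 9 of 22 were called, beside 28.3% of all such rows. Igfbp3, which encodes a secreted IGF-binding protein, rose from 9.31 to 23.4 FPKM (2.52-fold), and the receptor gene Igf1r from 3.53 to 5.2 FPKM (1.47-fold). The docking protein gene Irs4 fell from 8.66 to 4.66 FPKM, Igfbp5 from 1.32 to 0.962 FPKM and Igf2bp2, an mRNA-binding protein gene, from 26.3 to 20.1 FPKM. Insr (1.98 and 1.76 FPKM) and Akt1 (25.3 and 25.5 FPKM), picked with their values known, did not pass the test.

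**Figure D4:**
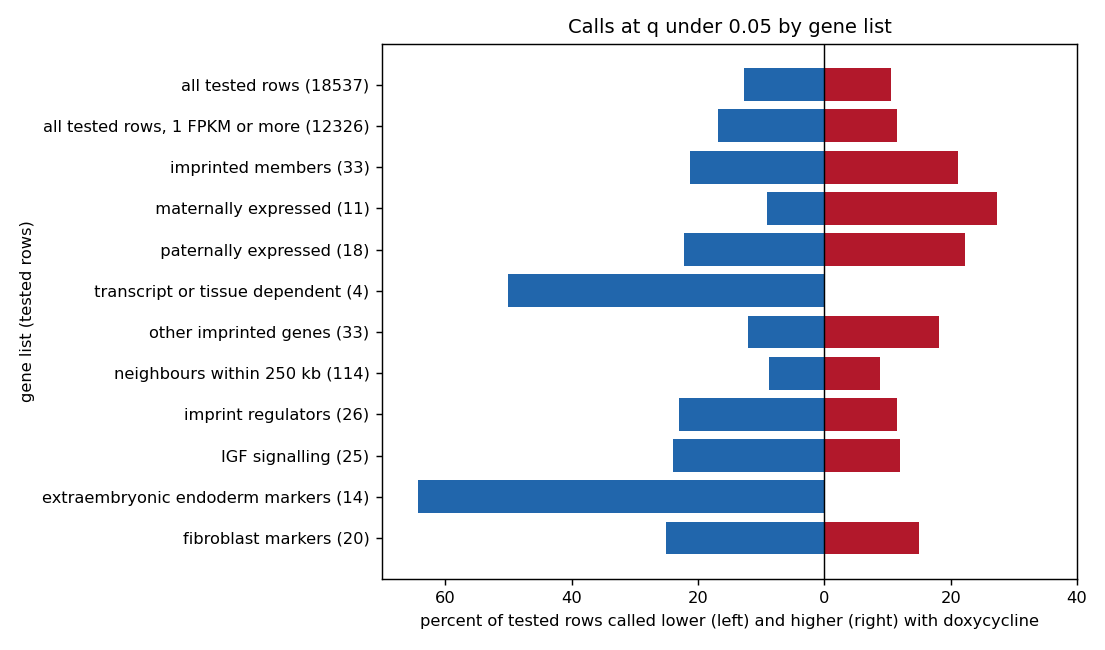
Percent of tested rows called lower (left, blue) and higher (right, red) with doxycycline in each gene list, with the number of tested rows in brackets. Imprinted genes were called in 42.4% of tests against 23.2% of all tested rows, and markers of extraembryonic endoderm were called only in the lower direction (64.3%).

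Imprinted genes can be abundant in fibroblasts and in extraembryonic cells, so markers of these were read beside them. For comparison with the counts below, 10.5% of all tested rows rose and 12.7% fell. Of 14 tested markers of extraembryonic endoderm, 9 fell and none rose in the authors' deposited table, among them Sox7 (2.49 to 1.46 FPKM), Gata6 (4.43 to 2.76 FPKM) and Afp (10.5 to 6.57 FPKM). Of the 5 that did not pass, Sox17 was at 3.13 FPKM with and without doxycycline and Ttr at 36.8 and 37.5 FPKM. Their summed level over 15 rows was 465 FPKM without and 360 FPKM with doxycycline. Of 20 tested fibroblast markers, 3 rose and 5 fell in the authors' deposited table, with a summed level over 22 rows of 121 and 91.5 FPKM. Col1a1, the main collagen of fibroblasts, rose from 1.11 to 4.43 FPKM, while Col1a2 (1.69 and 1.5 FPKM) was not called. The other rises, Col6a1 and Prrx1, were under 1 FPKM. Acta2 (18.9 to 9.92 FPKM) and Tagln (56.9 to 36.5 FPKM) fell. Most of the drop in the summed fibroblast level came from Acta2 and Tagln. That sum therefore does not show a drop shared by the list, in which 12 tested markers passed in neither direction. Thy1 (9.34 to 6.42 FPKM), Twist1 (1.33 to 0.803 FPKM) and Pdgfrb (0.706 to 0.47 FPKM) also fell. Of 10 tested trophoblast markers none rose and 2 fell, Krt7 (1.86 to 0.856 FPKM) and Krt8 (70 to 43.6 FPKM), and 1 of 12 rows was at 0 in both groups. Only 3 of these 10 reached 1 FPKM in either group, Krt7 and Krt8 among them, so most of the list was low. In the mesoderm list 4 of 10 rose and 2 fell. The part of these cell types in the values of the imprinted genes was not tested, and in such mixed cultures fewer cells of a type and less RNA per cell cannot be told apart.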

How the data were processed

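RNA of 6 libraries in 2 groups of 3 was sequenced, and 1 table of 36699 gene rows was used. The submitters' processing notes name Cuffdiff, Cufflinks 2.0.2, TopHat2 2.0.8, Picard and Bowtie, with mouse build mm9; the sources used here do not give annotation, scaling or filters. The authors deposited FPKM values combined over each group, so depth is unknown, p-values and intervals may reflect technical spread only, and no counting interval or detection limit can be given. Each row's q-value, p-value, test statistic and log2 fold change are as the authors deposited them, per the file headers. From them, ratios, medians, counts of calls (q under 0.05, status OK, adjusted over 18537 tested rows) and intervals were computed (log2 fold change over the test statistic, times 1.96) in pandas 2.3.3, scipy 1.17.1 and numpy 2.4.6 (Python 3.11.15). The deposited p-values equalled the normal tail of the statistic to within 2.84e-06 in tested rows; the code was tested on simulated data. Starts were read as 0-based and printed from 1, since gene lengths then equalled GENCODE vM21 lengths for 10185 of 18362 rows against 288 otherwise. Sequences came from RefSeq tables of GRCm38.p6, matched by symbol for 35 of 41 genes. Genes and lists were chosen with earlier results of these data known. From the added lists, up to 6 called genes with the largest fold at 1 FPKM or more were named; 2 of these are not reported here. Rows sharing a span may share reads. Alternatives were q thresholds, a minimum fold, Bonferroni adjustment, a level filter, pseudocounts, re-centring and leaving out overlapping rows.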

Additional observations from a re-analysis of the deposited data

How the results depend on the processing

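Of 93 recomputed values, 72 stayed within 1.5 times the reported count or, for medians, within the median standard error of the genes' log2 fold changes, and 21 moved. All re-centred counts, for which q was not recomputed, and all medians are among the 72. Under Bonferroni adjustment the calls among imprinted genes went from 14 to 8 (3 of the 7 rises), among maternally expressed genes from 4 to 1, paternally expressed genes from 8 to 5, other imprinted genes from 10 to 4, imprint regulators from 9 to 2, IGF signalling genes from 9 to 5 and neighbours from 20 to 12. With a minimum fold of 1.5 they were 2 for maternally expressed genes, 1 for transcript-dependent genes, 4 for other imprinted genes, 2 for imprint regulators, 3 for IGF signalling genes and 13 for neighbours. Without rows that overlap another row they were 5 for paternally expressed genes, 1 for transcript-dependent genes, 6 for other imprinted genes and 11 for neighbours. At 1 FPKM or more 5 paternally expressed genes were called, and at q under 0.01 5 imprint regulators. With rows naming several genes, a choice made after seeing the data, 7 maternally expressed genes were called in place of 4. Re-centring used the median of rows at 1 FPKM or more, -0.04 on the log2 scale, and left q as deposited. It could drop only calls with a change smaller than that median. None of the 14 calls was that small, so the setting could not test them. The reported medians each shift by that same amount, which lay within their margin, so re-centring could not test them either. The median of paternally expressed genes changed sign, from -0.03 to 0.02, and still counts among the 72. No paired analysis was possible because the table holds 1 value for each group; for the same reason no library could be left out.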
